A study of Rattus norvegicus with 2 samples.

Results

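The genes of synaptic vesicle release were compared between male and female SHR in RNA of the hypothalamus; the SHR is an inbred rat strain that becomes hypertensive with age. The set was a named list of 44 genes for the proteins that load, dock, fuse and recover synaptic vesicles, chosen by name, with earlier results of these data known. Of these, 43 were matched to at least 1 probe through a RefSeq accession, out of 39500 genes and unnamed transcripts on the array; Cadps2 was not matched and is not analysed here. The male group was 1 pool of RNA from 5 male SHR and the female group 1 pool from 5 female SHR, all aged 9 weeks, with 100 ng of RNA taken per rat; no treatment, transgene or other strain was involved. Each pool was hybridised to 1 single-colour array, so the rats of a pool cannot be told apart and no test between the sexes can be made. Differences are log2 values, male minus female, on signals divided by the 75th percentile of their own array, so a negative value means less signal in males; below, males and females stand for the pools. All 10 of 10 checked hypothalamic peptide genes, from Avp to Gnrh1, were well above background on both arrays.

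Neurons release transmitter when a vesicle fuses with the presynaptic membrane. The vesicle SNARE protein synaptobrevin zips together with syntaxin and SNAP-25 on the membrane, synaptotagmins sense the calcium that enters with the action potential, and complexins hold and aid the partly zipped complex. Active zone scaffolds place vesicles beside calcium channels, NSF and its SNAP adaptors take spent SNARE complexes apart, and endocytic proteins recover the membrane. In the hypothalamus the same machinery serves fast synapses and, in part, the large dense-core vesicles that hold neuropeptides.

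Most release genes had slightly less signal in males, and none differed by as much as 2-fold. There were 42 members well above background on both arrays. Of these, 33 were lower and 9 higher in males, and the median log2 difference was -0.05. The array as a whole held 24134 such genes and transcripts, 55% of them lower in males, and their median was -0.02. The members' median minus that of the whole array was -0.03. The technical SD of a gene's difference on 1 spot, without matching spots between arrays, was 0.07 for bright spots and 0.43 for the dimmest. A count of 0 members were at least 2-fold lower in males, against 0.613% of all genes and transcripts, and at least 2-fold higher were 0, against 1.16%. At a smaller size, 25% more signal in 1 pool than in the other, 1 member was lower in males, against 3.81% of all, and 0 were higher, against 5.4%. Signals of 37 of the 42 members were within 10% of equal between the pools. Such a share was not counted over all genes and transcripts, so this closeness is not read as particular to the members. In RNA of whole tissue, fewer cells of a type and less RNA per cell cannot be told apart.

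The precision of a member depended on its brightness and on how often its probe was printed. The technical SD was estimated on each array from probes printed on several spots, and covers printing and scanning, not rats or arrays. It combines the spread on both arrays without matching their spots. Matched spot by spot, the SD of the difference was 0.03 to 0.05 for the 9 members on 7 or more spots. The technical SD of 1 spot was also used for members averaged over several spots, for which it is a wide limit. In males 11 members were lower by more than this SD of 1 spot, which was 26.2% of the 42, against 18.1% of all genes and transcripts, and 0 were higher by more than it, against 13.3%. The 11 were Snap25, Syt5, Syp, Synpr, Erc2, Cadps, Rab3a, Nsf, Napa, Napb and Dnm1. They came from 7 of the 8 roles, the exception being the complexins.

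**Figure D1:**
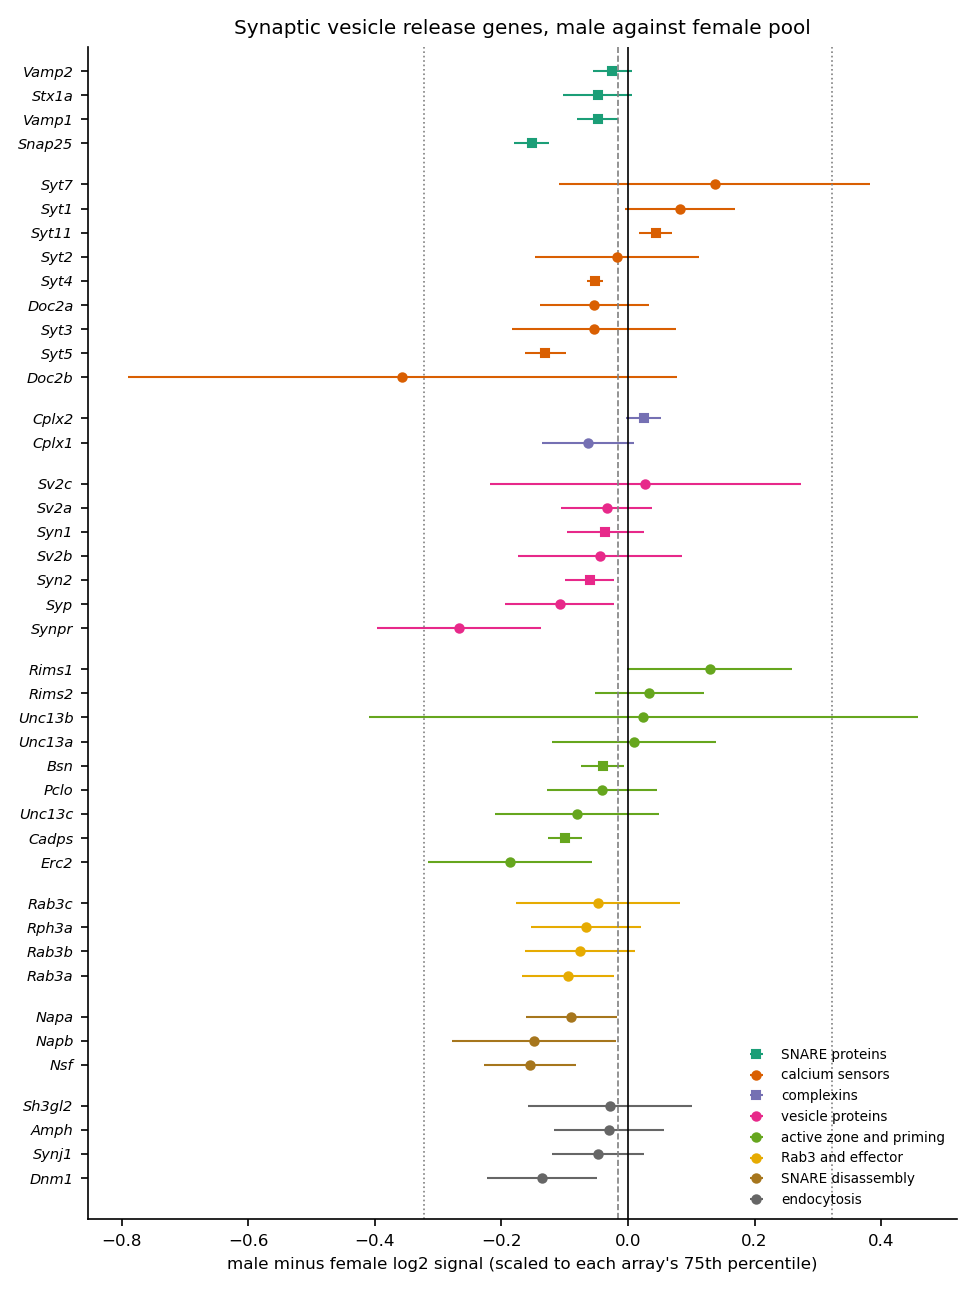
Male minus female log2 signal of the 42 members well above background on both arrays, grouped by role. Circles are probes on 1 spot with a bar of the technical SD of 1 spot. Squares are probes on several spots with a bar of the SD between spots. The bars are not alike, because only the SD between spots matches each spot between the arrays. The dashed line is the median of all genes and transcripts (-0.02), and the dotted lines mark 25% more signal in 1 pool. Most points lie left of 0, and Doc2b, at -0.36, is the point beyond the dotted lines.

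The core SNARE genes were measured on 9 or 10 spots each and were all lower in males, against 55% of all genes and transcripts. Snap25, which encodes the SNARE that contributes helices from the presynaptic membrane, had a mean signal of 15592 units in males and 17735 units in females. Its log2 difference was -0.15 ± 0.03 (SD over 9 spots), or 1.11-fold lower. All 9 spots were lower, and the male spots, at 684% to 725% of the array's 75th percentile, did not overlap the female spots at 764% to 803%. The vesicle SNARE genes were closer to equal. Vamp1, which encodes synaptobrevin 1, had 22931 and 24266 units in males and females, a difference of -0.05 ± 0.03 (SD over 10 spots), but its dimmer probes were at 0.06 and -0.06. Vamp2, which encodes the main forebrain synaptobrevin, had 61184 and 63716 units, a difference of -0.03 ± 0.03 (SD over 10 spots). The syntaxin gene Stx1a had 4365 and 4621 units, a difference of -0.05 ± 0.05 (SD over 9 spots). For these last 3 genes the spots of both arrays overlapped.

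The genes that take SNARE complexes apart had the lowest median of the 8 roles, -0.15 over 3 genes (-0.07 with normexp background correction). Nsf, the ATPase that unwinds the complex, had 5628 units in males and 6413 units in females, a difference of -0.15. Napa, which encodes the widely used adaptor alpha-SNAP, had 2195 and 2390 units, a difference of -0.09. Napb, which encodes the brain form beta-SNAP, had 296 and 336 units, a difference of -0.15. All 3 were lower in males by more than the technical SD of 1 spot, against 18.1% of all genes and transcripts. This SD was 0.07 for Nsf and Napa and 0.13 for Napb, and each gene was on a single spot. With normexp Napb was at -0.04, which is within that SD. Their genes lie on separate chromosomes, 10, 1 and 3. Because all 3 were lower, their promoters are shown from RefSeq (build GRCr8, 250 bases before to 50 after the start, 5′ to 3′). Capitals mark a GC box (GGGCGG), a cyclic AMP response element (TGACGTCA) or a CCAAT box (CCAAT), each searched on both strands together with a TATA box (TATAAA), which none of the 3 held; no matches overlapped.
Nsf, chr10:89357334-89357633, minus strand: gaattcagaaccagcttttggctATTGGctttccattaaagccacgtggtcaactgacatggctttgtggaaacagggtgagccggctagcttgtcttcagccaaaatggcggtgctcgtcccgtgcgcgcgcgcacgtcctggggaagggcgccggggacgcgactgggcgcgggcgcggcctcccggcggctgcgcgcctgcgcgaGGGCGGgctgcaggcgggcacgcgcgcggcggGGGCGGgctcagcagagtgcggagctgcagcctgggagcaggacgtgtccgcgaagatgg
Napa, chr1:85915185-85915484, plus strand: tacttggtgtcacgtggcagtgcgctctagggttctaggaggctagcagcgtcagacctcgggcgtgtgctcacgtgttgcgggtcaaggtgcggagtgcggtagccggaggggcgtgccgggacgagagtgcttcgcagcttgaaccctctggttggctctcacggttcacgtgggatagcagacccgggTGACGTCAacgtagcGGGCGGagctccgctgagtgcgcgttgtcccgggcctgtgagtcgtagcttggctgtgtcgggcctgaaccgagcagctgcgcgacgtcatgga
Napb, chr3:156632369-156632668, minus strand: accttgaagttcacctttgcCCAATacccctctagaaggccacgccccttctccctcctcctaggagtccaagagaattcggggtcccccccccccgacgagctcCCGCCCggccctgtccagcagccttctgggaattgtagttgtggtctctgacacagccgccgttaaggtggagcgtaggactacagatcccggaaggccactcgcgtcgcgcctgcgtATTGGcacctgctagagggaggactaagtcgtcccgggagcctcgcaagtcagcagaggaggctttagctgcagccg
The Nsf window held 2 GC boxes and 1 CCAAT box, the Napa window 1 GC box and 1 cyclic AMP response element, and the Napb window 1 GC box and 2 CCAAT boxes. Over 37 members with a window in the table, 26 (70.3%) held a GC box, against 58.8% of 9983 windows of genes measured on both arrays and 34.9% of all 27457 windows. The TATA box was in 0 of the 37, against 7.98% of windows of measured genes and 14.3% of all. The cyclic AMP response element was in 4 (10.8%), those of Napa, Sh3gl2, Syn1 and Vamp1, against 3.08% and 1.91%. The CCAAT box was in 13 (35.1%), against 37.5% and 37.7%. Median GC content was 64.7% in the members' windows, 60.3% in those of measured genes and 52.3% in all. A match describes letters in this window and not a bound site.

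Calcium sensor genes went both ways, with 6 of 9 lower in males, against 55% of all genes and transcripts. Their median was -0.05 (-0.01 with normexp). Syt5, a synaptotagmin gene of secretory vesicles, had 7827 and 8768 units in males and females, a difference of -0.13 ± 0.03 (SD over 10 spots). All 10 of its spots were lower in males, although the ranges of both arrays overlapped. Syt11, which encodes a synaptotagmin that does not bind calcium, went the other way. Its signal was 34649 and 34398 units, a difference of 0.04 ± 0.03 (SD over 9 spots), with 0 spots lower, but it was at -0.05 on a second, dimmer probe. Syt4, a relative of Syt11, had 5540 and 5881 units, a mean difference of -0.05 over spots at -0.06 and -0.04, and its second probe was at 0.02. The fast calcium sensors of synchronous release were within their technical SD. Syt1 had 1321 and 1276 units, a difference of 0.08 with a technical SD of 0.09, and -0.01 on its second probe. Syt2 had 269 and 279 units, a difference of -0.02, and 0.14 on its dimmer probe. The slower, high-affinity sensor gene Syt7 had 94 and 87 units, a difference of 0.14 with a technical SD of 0.25. Its second probe was at -0.09, so its direction was not settled. Syt3 had 348 and 369 units, a difference of -0.05. Of the Doc2 genes, whose products sense calcium for spontaneous and asynchronous release, Doc2a had 612 and 649 units, a difference of -0.05. Doc2b had 28 and 36 units, a difference of -0.36, or 1.28-fold lower in males, which was within its technical SD of 0.43 at this dim signal. With normexp Doc2b was at -0.08. The complexin genes differed in sign, with Cplx1 at 2736 and 2925 units (-0.06) and Cplx2 at 3333 and 3352 units (0.02 ± 0.03, SD over 9 spots). Cplx1 changed sign with normexp and Cplx2 with median centring of the arrays.

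**Figure D2:**
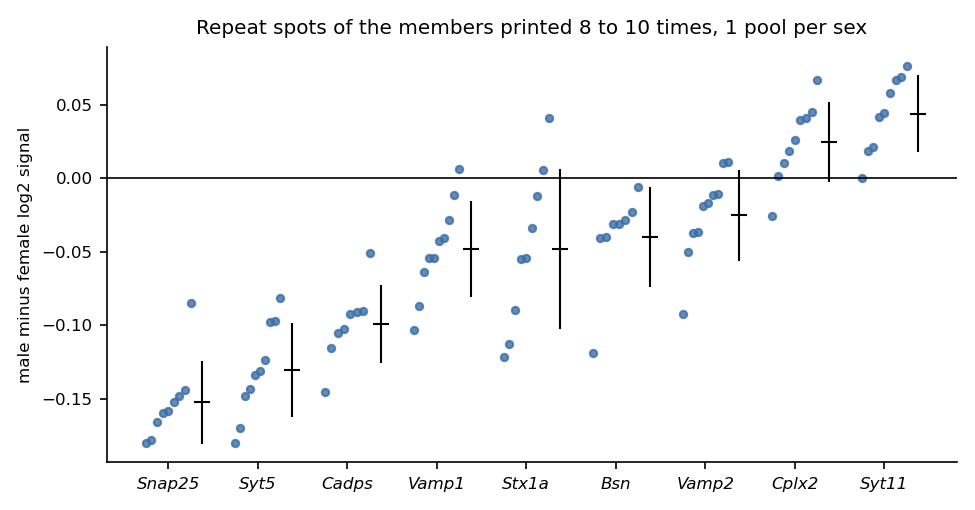
Male minus female log2 signal of every repeat spot (points) of the 9 members measured on 8 to 10 spots, with the mean and SD over spots beside them. Every spot of Snap25, Syt5, Cadps and Bsn is below 0, every spot of Syt11 is at or above 0, and the others have spots on both sides.

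Genes of the vesicle membrane and its surface were lower in males in 6 of 7 cases, against 55% of all genes and transcripts. Their median was -0.04 (-0.08 with median centring and -0.03 with normexp). Synpr, which encodes synaptoporin, a 4-span vesicle protein related to synaptophysin, had 493 units in males and 607 units in females. Its difference of -0.27 was the largest of the members outside the dimmest signals, and 5.59% of all genes and transcripts lay lower. It rested on 1 spot, with a technical SD of 0.13, and ranged from -0.30 to -0.19 over the 7 other settings tried. Syp, which encodes synaptophysin itself, had 765 and 844 units, a difference of -0.11. Synapsins, which tether vesicles to the cytoskeleton, were nearer to equal. Syn1 had 2372 and 2490 units, a difference of -0.04, and Syn2 had 4950 and 5283 units, a difference of -0.06. The second Syn1 probe was at -0.06 and the second Syn2 probe at 0.01. Syn3 passed the background limit in females alone, at 25 units against 16 units in males, and its spot was in a patch. Its difference of -0.63 (1.55-fold lower in males, technical SD 0.43) compares readings near background and is not a bound. A patch is a region of the slide where neighbouring spots of other probes differed at least 2-fold in 1 direction. The SV2 genes, for a family of vesicle glycoproteins that includes the target of the antiepileptic drug levetiracetam, were close to equal. Sv2a had 5018 and 5257 units (-0.03), Sv2b had 398 and 420 units (-0.04) and Sv2c had 101 and 101 units (0.03). Sv2b changed sign with normexp, and Sv2c with median centring and quantile normalization.

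Active zone and priming genes were divided, with 5 of 9 lower in males and a median of -0.04 (-0.02 with normexp). That count is near the share of all genes and transcripts lower in males, 55%. Cadps, which encodes CAPS, a priming factor for dense-core vesicles, had 7785 and 8535 units, a difference of -0.10 ± 0.03 (SD over 8 spots). All 8 spots were lower and the spots of both arrays did not overlap, but its second probe was at 0.03. Bsn, which encodes the giant scaffold bassoon, had 5772 and 6074 units, a difference of -0.04 ± 0.03 (SD over 8 spots), with all 8 spots lower. Pclo, for the related scaffold piccolo, had 759 and 800 units, a difference of -0.04, and its other 3 probes were at -0.01, 0.11 and 0.00. Erc2, an active zone protein gene of the ELKS family, had 311 and 362 units, a difference of -0.19. Its second probe was at 0.13, which leaves it without a settled direction. The RIM genes, whose products join vesicles to calcium channels, were higher in males on their brightest probes. Rims1 had 150 and 141 units, a difference of 0.13 with a technical SD of 0.13, and Rims2 had 848 and 848 units, a difference of 0.03, with -0.21 on its dimmer probe. The Munc13 genes, for the factors that make vesicles ready to fuse, were close to equal. Unc13a had 209 and 212 units (0.01), Unc13b had 32 and 32 units (0.02) and Unc13c had 218 and 236 units (-0.08). The signs of Unc13a and Unc13b turned with median centring and with quantile normalization.

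All 4 genes of Rab3 and its effector were lower in males, against 55% of all genes and transcripts. Their median of -0.07 stayed below 0 under the 7 other settings tried. Rab3 is the small GTPase that rides on vesicles, and rabphilin binds its active form. Rab3a, the main brain form, had 2568 units in males and 2806 units in females, a difference of -0.09. Rab3b had 1657 and 1788 units (-0.08) and Rab3c had 486 and 514 units (-0.05). The rabphilin gene Rph3a had 1743 and 1869 units, a difference of -0.07 on a spot in a patch, and it was at -0.08 on its second probe outside patches. Only Rab3a of these 4 was beyond the technical SD of 1 spot. The 4 endocytosis genes were also all lower in males, and their median was -0.04. Dnm1, which encodes the neuronal dynamin that pinches vesicles off, had 911 and 1025 units, a difference of -0.14. The others lay between -0.05 and -0.03. Synj1, for a lipid phosphatase that helps shed the clathrin coat, had 10490 and 11097 units. Amph, for the clathrin adaptor amphiphysin, had 954 and 996 units, and Sh3gl2, for endophilin A1, had 255 and 266 units. Each of these last 3 was within its technical SD.

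These small differences were alike over most of the range of brightness but varied with the choice of probe. In the range above the 75th percentile, 16 of 18 members were lower in males (median -0.05), while 56.8% of all 4645 genes and transcripts of that range were lower with a median of -0.01. Between log2 signals of -4 and -2, 9 of 11 members were lower with a median of -0.05, against 56.4% of 6016 and a median of -0.02. The range from -2 to 0 held 7 of 9 members lower, against 61.7% of 5215. Of the dimmer members, 0 of 2 were lower between -6 and -4 (median 0.08, against 50.4% of 5846 lower) and 1 of 2 below -6. Members on 7 or more spots were lower in 7 of 9 cases, against 39.1% of 1147 genes and transcripts with as many spots, whose median was 0.02. Every spot was lower in 4 of these 9 members, against 16.0% of the 1147. Dimmer probes of the same genes often went the other way. For 13 members a second probe was also well above background on both arrays. Of these, 9 were lower in males by the brightest probe (median -0.04) and 7 by the second brightest (median -0.01); over 3518 genes and transcripts with such a second probe its median was -0.02 and 56.6% were lower, against 53.8% of the 13. By the second probe the members' median thus lay 0.01 above that of the array, not below it. The sign differed between both probes in 10 of the 13, and the second probe lay further from 0 than the brightest in 6. In all, 11 of these 13 members had probes of both signs. These counts of sign were not made over all genes and transcripts, so they are not read as particular to the members. The 29 members with a single such probe were lower in 24 cases, with a median of -0.05.

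**Figure D3:**
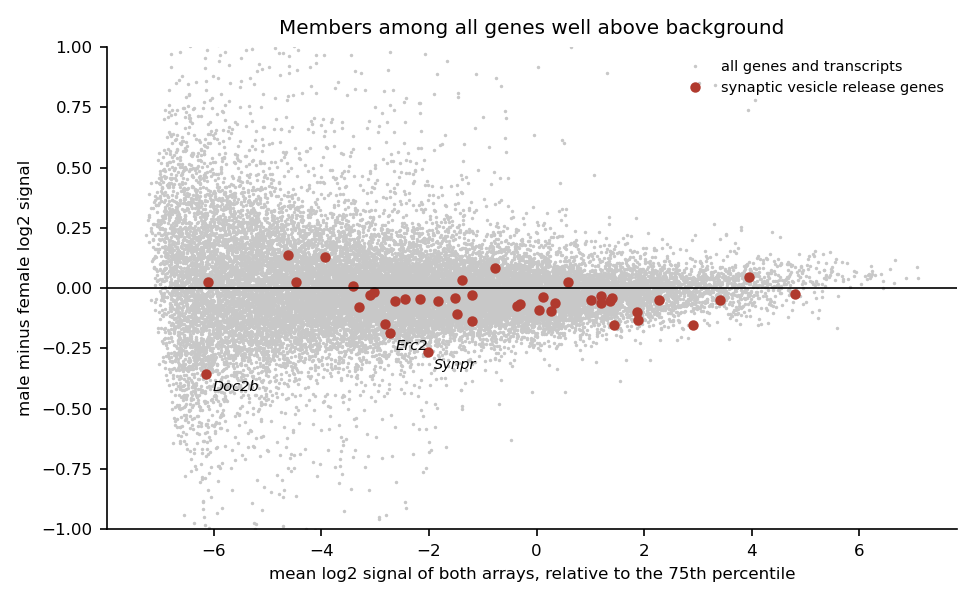
Difference between the pools (male minus female log2 signal) against the mean log2 signal of both arrays, for all 24134 genes and transcripts well above background on both arrays (grey) and the 42 members (red). The vertical axis stops at 1 log2 unit, which leaves out 428 genes and transcripts and 0 members. Members spread over the whole range of signal and stay near 0, with Doc2b at the dim end.

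The rest of the release pathway gave a similar median. A list of 96 other genes, for SNARE proteins and their partners, synaptotagmin relatives, active zone, vesicle and endocytosis proteins, matched 89 genes on the array, and 83 passed the background limit on both arrays. Of these 59 were lower and 24 higher in males, where 55% of all genes and transcripts were lower, and the median was -0.05. By more than the technical SD of 1 spot 26 were lower and 7 higher, against 18.1% and 13.3% of all genes and transcripts. By roles the medians were -0.09 for 14 other vesicle protein genes, -0.07 for 15 other active zone and Rab genes, -0.06 for 12 synaptotagmin, synaptotagmin-like and complexin genes, -0.03 for 22 endocytosis genes and -0.01 for 20 SNARE genes and their partners. The last of these turned to 0.01 with normexp. Lower in males by the smaller size were 2 of the 83, against 3.81% of all genes and transcripts. Stxbp5l, which encodes tomosyn-2, a soluble inhibitor of SNARE assembly, had 43 and 57 units in males and females (-0.37, technical SD 0.25), and Syt12 had 342 and 443 units (-0.34, technical SD 0.13). With normexp, 0 of the 83 reached that size. The vesicular transporter gene for GABA and glycine, Slc32a1, had 155 and 189 units (-0.25), and that for acetylcholine, Slc18a3, had 237 and 286 units (-0.24). Synj2, a relative of Synj1, had 1859 and 2227 units (-0.23) and Dnm3, a relative of Dnm1, had 4750 and 5474 units (-0.17). The active zone binding protein gene Rimbp2 had 1904 and 2199 units (-0.17), its spot being in a patch, and Rab3d, the Rab3 form best known from exocrine cells, had 137 and 120 units (0.23, technical SD 0.25).

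Most neuronal genes outside the vesicle cycle were lower in males, like most release genes, whereas most postsynaptic genes and most glial, meningeal and blood cell genes were higher. Neuronal genes outside the vesicle cycle were lower in males in 17 of 19 cases (median -0.06), against 55% of all genes and transcripts. Their summed signal was 8184% of the 75th percentile in males and 8497% in females. By more than the technical SD 6 were lower and 1 higher, against 18.1% and 13.3% of all genes and transcripts. Postsynaptic genes were higher in 12 of 18 cases and lower in 6 (median 0.03, and 0.00 with median centring). Beyond the technical SD 4 were higher and 2 lower, against 13.3% and 18.1% of all genes and transcripts. Of the 4, Grin1 (0.12) had spots at -0.14 and 0.37, and Gria1 (0.42) was on a spot in a patch. Oligodendrocyte markers were higher in males in 12 of 13 cases (median 0.11, summed signal 18692% against 17255%), astrocyte markers in 9 of 10 (0.08, 12206% against 11556%) and microglia markers in 9 of 11 (0.09, 925% against 873%). By more than the technical SD, 9 oligodendrocyte markers were higher and 1 lower. For astrocyte markers these counts were 5 and 1, and for microglia markers 4 and 0. Meningeal fibroblast markers were higher in all 11 (median 1.21, 501% against 203%) and red blood cell markers in all 6 well above background on both arrays (0.85, 3449% against 1974%). All of these were higher by more than the technical SD. Pituitary markers were mixed, with 4 of 5 higher (median 0.35, 287% against 189%), Gh1 and Fshb not being well above background on either array. The 4 were Tshb (257 and 21 units, 3.64), Cga (1870 and 469 units, 2.03, on a spot in a patch), Lhb (0.35) and Pomc (0.24). Pomc, at 3926 and 3407 units, had the largest signal of the list. It is also a gene of hypothalamic neurons, so the count and sums of this list are not those of pituitary tissue alone. The transcription factor gene Pou1f1 was lower (-0.32, technical SD 0.43, on a spot in a patch). The prolactin gene Prl was also lower in males. It had 122 units in females and was not well above background in males, at least 7.81-fold lower there, on a spot in a patch. The part of these cell types in the differences of release genes was not tested. The members' own summed signal was 9907% of the 75th percentile in males and 10208% in females.

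**Figure D4:**
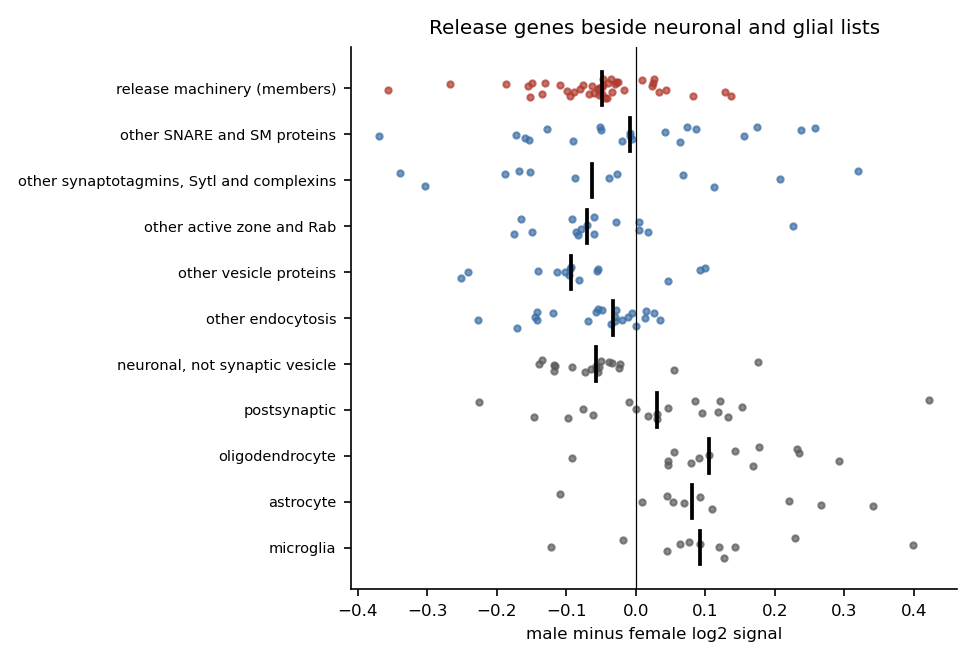
Male minus female log2 signal of each gene well above background on both arrays (points) with the list median (black line), for the release genes (red), 5 lists of other release pathway genes (blue) and markers of neurons, postsynaptic sites and glia (grey). The neuronal median (-0.06) lies beside that of the release genes (-0.05), and the oligodendrocyte, astrocyte and microglia medians (0.11, 0.08 and 0.09) lie on the other side of 0.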

How the data were processed

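RNA of 1 pool of 5 rats per sex was measured on 1 single-colour Agilent array each. Per the file headers, the authors' array files hold the processed signal, an intensity with background subtracted and no scaling between arrays, made with Feature Extraction 11.5.1.1, whereas the submitters' processing notes name version 9.1. The deposited value table holds intensity values equal to 100 times the processed signal over the array's 75th percentile.

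Log2 signals were centred on the 75th percentile over 58717 rat transcript spots (2203 units in the male and 2254 units in the female array, a shift of 0.03 on the log2 scale), which were well above background at 71.6% and 73.0%. Outlier flags removed 664 spots, and 0 were saturated. Spots of a probe were averaged, and a probe was taken as well above background if over 50% of its spots were. Accessions were matched to symbols in a RefSeq gene table of GRCr8, used for names and chromosomes because the array design names another build. The brightest probe stood for a gene, and each probe's signal was read only against itself in the other pool. Where 1 pool was not well above background, its signal was set to no less than the lowest well-above-background probe signal (15.3 units on the male and 12.9 units on the female array). There being 1 sample per group, no test was run: sizes of 2-fold and of 25% more signal in 1 pool are descriptive, and the number of arrays limits every value. Members and lists were chosen with earlier results of these data known.

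Named genes were all members and, of the other pathway genes, those beyond the 25% size or otherwise the 2 largest per list. Alternatives were normexp (limma 3.58.1, offset 50, on spot and background medians, since the files hold no mean signal), median centring, quantile normalization, the mean over probes, leaving out spots in patches, no filter, the deposited table and, added later, the second brightest probe. A spot was in a patch when at least 2 of its 18 nearest measured spots of other probes differed at least 2-fold in 1 direction. The steps were tested on simulated data.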

Additional observations from a re-analysis of the deposited data

How the results depend on the processing

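No paired analysis was possible because each sex had 1 pool. The members' median stayed below 0 under all 7 settings chosen at the start, from -0.08 with median centring to -0.03 with normexp. Under every one of these 29 members were lower and 3 higher in males. The share of all genes and transcripts that kept 1 sign was not counted. Their median moved from -0.05 with median centring to 0.02 without the filter, and the share of them lower in males from 64.8% to 45.4%. The second brightest probe, chosen after seeing the data, gave 7 of 13 members lower (median -0.01), and of the other pathway genes 17 of 26 lower and 9 higher. Of all genes and transcripts with such a probe 56.6% were lower. The second probe covers fewer genes by construction. By it 0 members and 0 other pathway genes were lower in males by the size of 25% more signal in 1 pool, and 1 other pathway gene was as much higher. The sign turned in 10 of the 13 members, among them Erc2 and Cadps, at 0.13 and 0.034. How often it turned over all genes and transcripts was not counted. Median centring left 5 members higher. Counts lower by that size were 0 with normexp for members and for other pathway genes. Without the filter they were 2 and 4, with 1 other pathway gene as much higher, and 1 was at least 2-fold lower and 1 at least 2-fold higher; such genes are near background. The cause of the other changes was not tested.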

Other observations

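The syntaxin, SNAP and VAMP genes that are not members went both ways. This grouping was chosen after the values were seen and gets no test. There were 12 that passed the background limit in both pools. In males 7 of them were higher and 5 lower. Beyond the technical SD of 1 spot 5 were higher and 1 lower, against 13.3% and 18.1% of all genes and transcripts. Most of them serve membrane traffic in many cell types. Snap23, the widely used relative of Snap25, had 764 units in males and 693 units in females, a log2 difference of 0.18. Vamp3, or cellubrevin, a close relative of Vamp2, had 7773 and 7136 units, a difference of 0.16 over 8 spots. Vamp8, an endosomal SNARE, had 960 and 834 units (0.24), Stx2 had 86 and 73 units (0.26) and Stx4 had 23964 and 23084 units (0.09). Snap29, at 0.06, was higher within its technical SD. Vamp4 was the lower one, with 3958 and 4564 units (-0.17), while Stx3 was at -0.01, Vamp7 at -0.02 and Snap47 at -0.05.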
